A study of Mus musculus with 2 samples.

Results

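Imprinted genes are expressed from the allele inherited from only the mother or only the father. The total RNA level of 35 of them was described here in the adult mouse heart, chosen by name and found among the 43346 Ensembl genes of the deposited gene tables through their gene identifiers, with 209 transcripts between them. By the parental allele known for each gene, 10 were classed as maternally expressed, 21 as paternally expressed, and 4 (Gnas, Ube3a, Copg2 and Inpp5f) as imprinted in some tissues or transcripts only. The heart came from 1 female C57BL/6J mouse, an inbred strain, aged 10 weeks, with no treatment or genetic change named. Its poly(A) RNA was made into 2 libraries, called replicates 1 and 2, which the labels give as technical replicates of a sole biological replicate with a size range of 350 to 450. Replicate 2 was made later, after the study that used replicate 1 was published, per the labels. A spread over the libraries (n = 2) is therefore technical, and p-values below compare those libraries only. The alleles of an inbred mouse cannot be told apart in these tables, so no value below says which allele was read.

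Most imprinted genes lie in clusters. A short region of DNA in each cluster, the imprinting control region, carries methylation on the allele from 1 parent only, laid down in the germ line and kept in the embryo by proteins such as ZFP57 and TRIM28. Many clusters pair a protein-coding gene with a long noncoding RNA made from the opposite parental allele. Many of the encoded proteins promote or restrain growth before and shortly after birth, and several of these genes are known to be switched down in most organs as animals mature.

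The libraries held 22775991 estimated counts in replicate 1 and 19685821 in replicate 2. Mitochondrial genes and 11 near-identical nuclear copies took 77.9% and 35.7% of them, which left 5028154 and 12654724 counts of other nuclear genes. Levels are therefore given as nuclear TPM, the deposited TPM (an abundance per transcript length) rescaled to the same total without those genes. All 6 cardiomyocyte markers were at 1 nuclear TPM or more in both libraries, with a summed level of 42801 and 69245. Single markers within a sum could go the other way, such as Pln, which was at 29346 and 6039. Markers of other cells moved too: the summed level of 4 red cell genes was 996 and 12824, of 4 macrophage genes 16.2 and 164, of 5 endothelial genes 257 and 586, of 5 fibroblast genes 2639 and 1063 (with Col1a1 at 13.7 and 35.6), of 4 mural cell genes 1441 and 695, and of 6 neuronal genes 13.02 and 9.98, with Rbfox3 at 0 in both. In the mural sum only Rgs5 was lower in replicate 2 (1393 and 322). Acta2 (38.1 and 312), Myh11 (8.03 and 31.7) and Pdgfrb (2.49 and 29.4) were higher there. The part of these cell types in the differences below was not tested. In bulk tissue, fewer cells and less RNA per cell cannot be told apart. The mean GC content of nuclear counts was 45.0% in replicate 1 and 50.5% in replicate 2.

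At 1 nuclear TPM or more in both libraries stood 24 of the 35 genes (68.6%), against 25.8% of all 43298 nuclear genes. At 10 or more in both stood 15. Counts in 1 or both libraries were found for 33, and Phlda2 and Magel2 had none in either. In all, the members held 0.213% and 0.198% of nuclear counts, and their summed level was 1785 and 1593 nuclear TPM. Gnas alone made up 44.9% and 62.1% of that sum (mean 53.5% ± 12.1, SD, n = 2). The median of all 35 was 15.4 nuclear TPM in replicate 1, the level of Inpp5f, at percentile 61.8 of the nuclear genes with counts. In replicate 2 it was 9.31, the level of Ndn, at percentile 53.2.

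**Figure D1:**
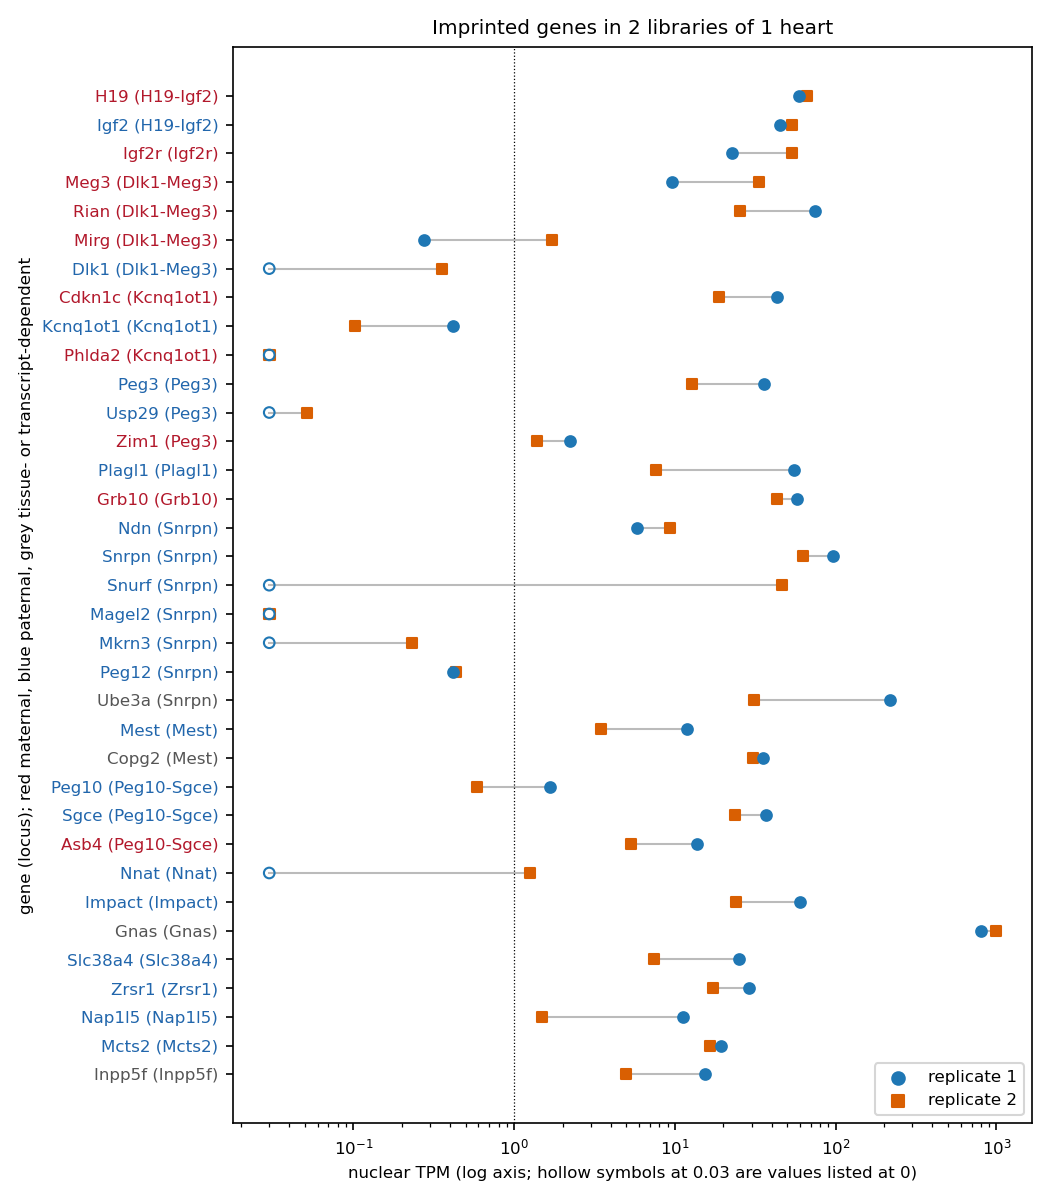
Level of each imprinted gene in nuclear TPM (log axis) in replicate 1 (circles) and replicate 2 (squares) of 1 heart, with locus in brackets and the parental allele known for the gene in colour. Gnas stands highest at 802 and 989, and hollow symbols mark values listed at 0.

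Insulin-like growth factor 2 and its partners were all present in the adult heart. Igf2, a fetal growth factor expressed from the paternal allele, was at 45.2 nuclear TPM in replicate 1 and 53.4 in replicate 2. H19, the maternally expressed noncoding RNA that shares enhancers and a control region with Igf2 on chromosome 7 (chr7:142575529-142578143, minus strand), was at 59.0 and 66.3. Both libraries placed H19 a little above Igf2, by 1.31-fold (95% exact binomial interval 1.04 to 1.63) and 1.24-fold (1.13 to 1.36). These intervals, and others below, take account of counting error alone, because several reads can stem from 1 molecule. Igf2r, the maternally expressed receptor that carries IGF2 to the lysosome for breakdown, was at 22.7 and 53.7. Igf2 was thus 1.98-fold above its clearing receptor in replicate 1 (1.73 to 2.28) and level with it in replicate 2 (0.995-fold, 0.923 to 1.07). Igf1, the growth factor that takes over after birth and is not imprinted, was at 29.2 and 10.2, so Igf2 was higher than Igf1 by 1.55-fold (1.35 to 1.78) and 5.24-fold (4.57 to 6.02). Airn, the paternal antisense RNA at Igf2r, was at 40.3 and 31.2, above Igf2r in replicate 1 and below it in replicate 2. It had only 78 and 216 counts, against 464 and 3533 for Igf2r, so its level rests on the shorter effective length given to Airn.

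The levels of H19 and Igf2 rest on an assignment to transcripts that differed between the libraries. H19 had 104 counts in replicate 1 and 994 in replicate 2. In replicate 1 all of its abundance was assigned to transcripts that start inside the gene, led by the short H19-203 with 88.1%. In replicate 2, 92.2% was assigned to H19-202, which starts at the 5′ end of the gene. The effective length of H19, the number of positions at which a fragment can start, was therefore 753 and 1983 bases, so its nuclear TPM differed less than its counts. For Igf2, the start of Igf2-201 carried 98.2% of abundance in replicate 1 and 41.2% in replicate 2. In replicate 2 the 958-base Igf2-208, annotated as a processed transcript that begins near the 3′ end, was given 46.8%. Gm49394, a same-strand gene model of GENCODE M21, covers 62.8% of the exonic bases of Igf2 in that release. The counts rest on annotation M4, and whether M4 holds this model, so that reads could be split, was not checked. The RefSeq promoter window of the Igf2-201 start (250 bases before to 50 after it, GRCm38.p6, chr7:142657447-142657746, minus strand) held 7 CpG sites, in capitals. It is shown because that start led in replicate 1 and was, among starts with a RefSeq window, the highest in replicate 2.

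Igf2-201 start: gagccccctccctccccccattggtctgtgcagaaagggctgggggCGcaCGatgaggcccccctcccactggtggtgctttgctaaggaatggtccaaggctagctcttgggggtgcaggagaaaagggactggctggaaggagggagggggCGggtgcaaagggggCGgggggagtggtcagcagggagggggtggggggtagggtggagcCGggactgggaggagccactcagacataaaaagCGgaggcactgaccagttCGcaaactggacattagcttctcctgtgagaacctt

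At the Dlk1-Meg3 locus on chromosome 12 the maternal noncoding RNAs were present and the paternal coding gene was nearly absent. Dlk1, which encodes a membrane protein related to Notch ligands that holds precursor cells undifferentiated, had 0 counts in replicate 1 and 3 in replicate 2. Meg3 (chr12:109541001-109571726, plus strand), a long noncoding RNA, had 92 and 361 counts, or 9.56 and 33.1 nuclear TPM. Its effective length was 4118 and 1440 bases, because the 14548-base Meg3-209 was given 69 of the 92 counts in replicate 1, so its nuclear TPM rests on this assignment. With Dlk1 set at 3 counts, Meg3 was 13.6-fold higher per length in replicate 1, and at least 10.8-fold higher by the exact interval. In replicate 2 Meg3 was 92.9-fold higher than Dlk1 per length (31.5 to 453). Rian, the host of many small nucleolar RNAs, was at 74.4 and 25.4 nuclear TPM. Meg3 was lower than Rian in replicate 1 by 7.79-fold (6.07 to 10.1) and higher in replicate 2 by 1.31-fold (1.10 to 1.55). With replicate 1 brought to the GC profile of replicate 2, Meg3 was above Rian in both, by log2 ratios of 1.71 and 0.38, so their order depends on that correction. Mirg, the most distal of these RNAs and a host of microRNAs, had only 1 and 11 counts. Rian exceeded it by 299-fold (53.1 to 11877) and 14.9-fold (8.17 to 30.3). The short RNAs that Rian and Mirg carry were not measured in poly(A) libraries of this size range.

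In the Kcnq1ot1 domain on chromosome 7, the maternal cell-cycle brake was expressed and its maternal neighbour was not detected. Cdkn1c (chr7:143458339-143461050, minus strand) encodes p57, an inhibitor of cyclin-dependent kinases, and had 172 and 243 counts, or 43.1 and 18.8 nuclear TPM. Phlda2, a restraint on placental growth, had 0 counts in both, which allows up to 2.25 and 0.699 nuclear TPM at 3 counts. With Phlda2 set at 3 counts, Cdkn1c was 19.2-fold and 26.9-fold higher. By the exact interval Cdkn1c was at least 15.4-fold and 21.7-fold higher. Its relative Cdkn1b, which encodes the inhibitor p27 and is not imprinted, was higher than Cdkn1c in both libraries, at 145 and 34.2 nuclear TPM. That is 3.37-fold (2.86 to 3.98) and 1.82-fold (1.57 to 2.11). With replicate 1 brought to the GC profile of replicate 2, Cdkn1b was higher in replicate 2 only, so their order depends on that correction. Kcnq1ot1, the paternal antisense RNA that silences this domain in cis, had 76 and 60 counts over an effective length of 84208 and 84207 bases, so its level was 0.416 and 0.102 nuclear TPM. Kcnq1, the potassium channel gene in which it lies, was at 5.96 and 30.1. Cdkn1c shares 625 of its 2039 exonic bases (30.7%) with Gm44732, a gene model of GENCODE M21 on the opposite strand. Kcnq1ot1 shares 121 exonic bases with Kcnq1 on the opposite strand, and the sources used here do not say whether strand was used in counting.

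Peg3, a paternally expressed zinc-finger gene, and Usp29, a paternally expressed gene for a deubiquitinase, start close together in opposite directions. Peg3 (chr7:6703892-6730431, minus strand) had 648 and 759 counts, or 35.7 and 12.8 nuclear TPM. Usp29 (chr7:6730578-6967219, plus strand) had 0 counts and 1 count. With Usp29 set at 3 counts, Peg3 was 67.7-fold higher per length in replicate 1, and at least 54.9-fold higher by the exact interval. In replicate 2 Peg3 was 235-fold higher than Usp29 per length (42.1 to 9298). Zim1, a maternally expressed zinc-finger gene beside them, was at 2.22 and 1.38 nuclear TPM, below Peg3 by 16.4-fold (10.2 to 28.4) and 9.30-fold (6.46 to 13.9). The RefSeq promoter windows of Peg3 and Usp29 share 263 bases. The only Usp29 transcript counted, the 2610-base Usp29-201, starts at 6961160, outside these windows, so both sides of the shared bases cannot be compared. The Peg3 window (chr7:6730370-6730669, minus strand, GRCm38.p6) is shown because nearly all Peg3 abundance came from transcripts that start in it. Transcripts that start there carried 100% and 97.6% of Peg3 abundance, and the window holds 13 CpG sites, in capitals.

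Peg3 start: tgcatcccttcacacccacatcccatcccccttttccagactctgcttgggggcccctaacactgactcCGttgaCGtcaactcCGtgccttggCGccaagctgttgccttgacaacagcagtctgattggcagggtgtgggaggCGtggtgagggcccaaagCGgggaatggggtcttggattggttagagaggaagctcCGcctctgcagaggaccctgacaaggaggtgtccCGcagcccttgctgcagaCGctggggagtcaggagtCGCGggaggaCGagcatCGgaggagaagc

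The Snrpn cluster on chromosome 7, the mouse counterpart of the Prader-Willi and Angelman region, held the most members. Snrpn, which encodes the splicing protein SmN and is paternally expressed, was at 96.7 and 62.3 nuclear TPM with 395 and 822 counts. Ndn, the gene for the growth-restraining protein necdin, had 20 and 103 counts, or 5.82 and 9.31 nuclear TPM. The neighbouring paternal genes were at or near 0: Magel2 had no counts in either library, Mkrn3 had 0 and 4, and Peg12 had 2 and 8. With Magel2 set at 3 counts, Ndn was 20.4-fold and 105-fold higher. By the exact interval Ndn was at least 15.1-fold and 83.8-fold higher. Snurf, an upstream reading frame of the Snrpn message, had 0 and 16.7 counts. Its 216 annotated bases lie wholly inside Snrpn exons and its effective length is 46.0 and 47.6 bases, so its 46.4 nuclear TPM in replicate 2 is uncertain and cannot be separated from Snrpn.

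Ube3a, the ubiquitin ligase gene of that cluster, is silenced on the paternal allele in neurons and expressed from both alleles in most other cells. It stood at 217 nuclear TPM in replicate 1 and 31.1 in replicate 2, with 2494 and 1154 counts. Ube3a was above Snrpn by 2.24-fold in replicate 1 (2.02 to 2.502), and Snrpn was above Ube3a by 2.00-fold in replicate 2 (1.83 to 2.19). Ube3a had the lowest GC content of the tested members, 39.6%. It shares 8.74% of its exonic bases with Snhg14, the antisense RNA that silences it in neurons. Snrpb, a relative of Snrpn that is expressed in most tissues, was at 11.9 and 140 nuclear TPM, so the order of Snrpn and Snrpb also differed between the libraries.

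Grb10, which encodes an adaptor that dampens insulin and growth factor receptors, was at 57.4 and 43.2 nuclear TPM with 606 and 1500 counts. It is expressed from the maternal allele in most tissues and from the paternal allele in neurons, with different start sites. Its neighbour Ddc, which encodes an enzyme of amine synthesis and has an imprinted transcript in the embryonic heart, was lower in both libraries by a like factor. Grb10 exceeded it by 4.60-fold (3.15 to 6.98) and 4.66-fold (3.81 to 5.75). Grb14, a relative of Grb10 that is not imprinted, was higher than Grb10 by 13.1-fold (11.9 to 14.5) and 4.19-fold (3.92 to 4.48).

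The start sites to which the abundance of Grb10 was assigned differed between the libraries. The start of Grb10-201 carried none of the abundance in replicate 1 and 71.9% in replicate 2, with 0 and 1146 counts. That of Grb10-203, 9430 bases downstream on chromosome 11, carried 96.2% and 21.5%, with 590 and 320 counts. The windows of both starts (chr11:12037371-12037670 and chr11:12027922-12028221, minus strand, GRCm38.p6) are shown because they differ in base composition. The Grb10-201 window has 45 CpG sites and a GC content of 80.0%, and the Grb10-203 window has 9 and 52.3%. CpG sites are in capitals. Its GC-rich start was the one without counts in replicate 1, the library of lower mean GC content, and the part of GC content in this was not tested.
Grb10-201 start: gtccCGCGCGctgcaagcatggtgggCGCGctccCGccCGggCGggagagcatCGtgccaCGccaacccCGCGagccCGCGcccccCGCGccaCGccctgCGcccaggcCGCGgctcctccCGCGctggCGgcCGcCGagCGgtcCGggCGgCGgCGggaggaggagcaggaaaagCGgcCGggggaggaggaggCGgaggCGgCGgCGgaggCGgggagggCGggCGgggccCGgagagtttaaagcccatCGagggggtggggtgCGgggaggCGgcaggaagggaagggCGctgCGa
Grb10-203 start: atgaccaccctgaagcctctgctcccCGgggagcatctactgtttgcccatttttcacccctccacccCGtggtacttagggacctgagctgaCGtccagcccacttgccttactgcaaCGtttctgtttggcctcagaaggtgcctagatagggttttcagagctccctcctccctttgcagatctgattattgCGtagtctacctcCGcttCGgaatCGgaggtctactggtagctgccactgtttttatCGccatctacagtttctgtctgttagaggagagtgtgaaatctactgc

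Plagl1, a paternally expressed zinc-finger gene that restrains cell division and is linked to transient neonatal diabetes, was at 54.7 nuclear TPM in replicate 1 and 7.65 in replicate 2. Its counts were 594 and 255. Its relative Plagl2 was lower, at 3.74 and 3.58, a difference of 14.4-fold (10.7 to 19.9) and 2.14-fold (1.74 to 2.65). Transcripts from the imprinted start of Plagl1 on chromosome 10, where 22 annotated transcripts begin within 500 bases of each other, carried 93.0% and 90.3% of its abundance.

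Gnas on chromosome 2 (chr2:174284320-174346744, plus strand) was the highest member in both libraries, with 2818 and 11427 counts, or 802 and 989 nuclear TPM (mean 895 ± 132, SD, n = 2). The locus makes several products from separate starts. The most downstream major start gives Gsα, the G protein subunit that couples beta-adrenergic receptors to adenylyl cyclase, and is expressed from both alleles in most tissues. The upstream starts give the maternal Nesp55 and the paternal XLαs, and the untranslated exon 1A is paternal. Of 7 groups of starts, the Gsα group carried 98.2% of abundance in replicate 1 and 98.2% in replicate 2. The exon 1A group carried 0.20% and 0.48%, the most upstream groups (starts from 174284320 to 174285358) 1.45% and 0%, and the group at 174297859 0% and 0.01%. The imprinted starts of Gnas thus carried under 2% in each library, and the order of the other groups rests on few counts: 14.0 and 0 upstream, 14.2 and 68.1 at exon 1A. Within the Gsα group, Gnas-206 was given 93.2% and 34.4% and Gnas-207 4.98% and 31.9%. The window of the Gsα start (chr2:174329756-174330055) has 40 CpG sites and that of exon 1A (chr2:174327499-174327798) has 27, both on the plus strand of GRCm38.p6, with CpG sites in capitals. They are shown as the used and the nearly unused start of the same gene.
Gnas Gsα start: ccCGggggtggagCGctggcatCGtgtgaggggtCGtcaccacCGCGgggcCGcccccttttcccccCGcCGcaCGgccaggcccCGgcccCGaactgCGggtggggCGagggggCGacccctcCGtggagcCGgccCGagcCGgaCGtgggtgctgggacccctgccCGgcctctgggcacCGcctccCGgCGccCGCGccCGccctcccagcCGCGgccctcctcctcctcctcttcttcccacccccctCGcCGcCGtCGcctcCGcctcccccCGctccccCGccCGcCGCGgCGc
Gnas exon 1A start: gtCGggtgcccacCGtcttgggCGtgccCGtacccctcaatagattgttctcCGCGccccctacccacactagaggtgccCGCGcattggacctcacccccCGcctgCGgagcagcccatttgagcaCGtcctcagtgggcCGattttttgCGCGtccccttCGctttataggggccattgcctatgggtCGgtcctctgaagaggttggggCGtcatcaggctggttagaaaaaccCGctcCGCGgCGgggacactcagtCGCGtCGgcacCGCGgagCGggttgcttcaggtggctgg

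Gnal, the gene for the related G protein subunit of olfactory neurons and striatum, had 6 and 3 counts. Gnas exceeded it by 1575-fold (723 to 4296) and 12546-fold (4292 to 60847).

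On chromosome 6, Mest, a paternal gene for a hydrolase-like protein marking embryonic mesoderm, was low, at 11.9 and 3.48 nuclear TPM with 66 and 62 counts. Copg2, its tail-to-tail neighbour for a coat protein of Golgi vesicles, was higher, at 35.3 and 30.8, by 2.96-fold (2.26 to 3.93) and 8.88-fold (6.84 to 11.7). The genes share 912 exonic bases on opposite strands, so part of their reads may be exchanged. All counts of Mest were assigned to the start at 30738050 in both libraries, the start known to be imprinted. By the deposited posterior means, which spread abundance over more transcripts, that share was 53.6% and 48.9%. Its RefSeq window (chr6:30737800-30738099, plus strand, GRCm38.p6) is shown because it holds 2 matches, in capitals, to TGCCGC, the letters bound by ZFP57 when methylated.

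Mest start: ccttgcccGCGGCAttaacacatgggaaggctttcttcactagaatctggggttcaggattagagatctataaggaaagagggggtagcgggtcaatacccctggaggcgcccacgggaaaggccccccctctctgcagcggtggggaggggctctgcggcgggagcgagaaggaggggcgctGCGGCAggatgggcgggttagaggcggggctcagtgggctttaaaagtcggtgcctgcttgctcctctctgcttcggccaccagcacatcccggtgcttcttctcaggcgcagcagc

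Peg10, Sgce and Asb4 lie at lower coordinates of that chromosome. Peg10, a gene derived from a retrotransposon and needed in the placenta, had 20 and 26 counts, or 1.66 and 0.588 nuclear TPM. Sgce, the gene for epsilon-sarcoglycan, starts beside it in the opposite direction and is also paternally expressed. Its level was 37.0 and 23.8 nuclear TPM, above Peg10 by 21.7-fold (13.3 to 37.2) and 40.8-fold (27.2 to 63.6). Asb4, a maternally expressed adaptor of a ubiquitin ligase known from vessels, was at 13.7 and 5.32, above Peg10 by 7.99-fold (4.91 to 13.6) and 9.14-fold (5.93 to 14.6). The order Sgce, Asb4, Peg10 was the same in both libraries.

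The paternally expressed genes that lie within an intron of another gene were lower than their hosts in both libraries in 3 of 4 cases. Nap1l5, a retrogene of the nucleosome assembly family in Herc3, was at 11.2 and 1.48 nuclear TPM, against 93.9 and 34.9 for Herc3. Zrsr1, a retrogene of a splicing factor in Commd1, was at 29.1 and 17.1, against 87.0 and 169. Zrsr1 and Commd1 share 412 exonic bases on opposite strands, so part of their reads may be exchanged. Nnat, a gene of neuronal and endocrine cells in Blcap, had 0 and 9 counts, against 181 and 761 for Blcap. Mcts2, a retrogene of a translation factor in H13, was at 19.3 and 16.5, above H13 in replicate 1 (11.4) and below it in replicate 2 (35.3). Zrsr1 was lower than its X-linked relative Zrsr2 by 1.45-fold in replicate 1 (1.15 to 1.82), and in replicate 2 the values were 17.1 and 17.8 (1.03-fold, 0.867 to 1.23). Mcts2 was below its X-linked relative Mcts1 by 15.6-fold (10.9 to 23.0) and 3.11-fold (2.43 to 4.01). Their sequences align at 77.4% identity over 1285 bases and 83.8% over 671 bases, and whether any reads fit both copies was not tested.

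Inpp5f, the gene for an inositol phosphatase known as a modifier of heart growth, is imprinted only in a short variant that starts inside the gene. It was at 15.4 and 4.94 nuclear TPM with 98 and 127 counts. The start of the full-length Inpp5f-201 carried 11.3% and 45.3% of abundance. Inpp5f-208, which starts 76218 bases downstream, carried 78.7% and 51.9%. Whether Inpp5f-208 is that imprinted variant is not stated in the annotation used. Impact, a paternal gene for a regulator of translation under amino acid shortage, was at 59.6 and 23.9 nuclear TPM. Slc38a4, a paternal gene for an amino acid transporter of liver and placenta, was at 24.9 and 7.42, below its relative Slc38a2 by 12.4-fold (10.8 to 14.3) and 15.5-fold (13.4 to 17.8).

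Summed by parental allele, the 10 maternal genes held 282 and 249 nuclear TPM and the 21 paternal genes 434 and 289. The 4 genes imprinted in some tissues only held 1069 and 1056, or 59.9% and 66.3% of the total. Maternal genes thus made up 39.4% and 46.3% of the sum of the maternal and paternal classes (mean 42.9% ± 4.85, SD, n = 2). At 1 nuclear TPM or more in both libraries were 8 of 10 maternal, 12 of 21 paternal and 4 of 4 remaining genes. These classes were drawn from knowledge of the genes, and the difference between 2 such classes of unequal size was not tested.

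A set of 35 pairs put a member beside a neighbour, a host or a relative. The gene named before the stroke was higher in both libraries in 13 and the other gene in 15. In 7 the order differed between the libraries. Order here is the sign of the log2 ratio alone, without regard to the intervals. The interval includes 1 in replicate 2 for Igf2/Igf2r, Snrpn/Snurf and Zrsr1/Zrsr2, in replicate 1 for Phlda2/Phlda3, and in both for Peg12/Frat1. Among 17 pairs within a locus the counts were 9, 4 and 4, among 4 pairs with a host 0, 3 and 1, and among 14 pairs with a relative 4, 8 and 2. The pairs whose order differed were Meg3/Rian, Snrpn/Ube3a, Igf2r/Airn, Igf2/Igf2r, Mcts2/H13, Copg2/Copg1 and Snrpn/Snrpb. Of these, Igf2/Igf2r was nearly level in replicate 2 (0.995-fold, 0.923 to 1.07). With replicate 1 brought to the GC profile of replicate 2, 5 of these 7 had the same order in both libraries, by log2 ratios of 1.71 and 0.38 for Meg3/Rian, 0.73 and 0.78 for Igf2r/Airn, -3.60 and -1.09 for Mcts2/H13, -0.62 and -0.52 for Copg2/Copg1, and -1.97 and -1.16 for Snrpn/Snrpb. Igf2/Igf2r and Snrpn/Ube3a still differed. Copg2 was at 35.3 and 30.8 nuclear TPM and its relative Copg1 at 10.5 and 44.0. Of the 28 pairs with 1 order, only Cdkn1c/Cdkn1b lost it under that correction, and its mean log2 ratio of -1.31 became 1.59. Members below their relatives also included Nap1l5 against Nap1l1 (11.2 and 1.48 against 434 and 87.4) and Mkrn3 against Mkrn1 (0 and 0.230 against 22.2 and 33.7). Phlda2, with no counts, stood beside Phlda3 with 2 and 172. Peg12 had 2 and 8 counts beside Frat1 with none in either, too few for a fold.

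**Figure D2:**
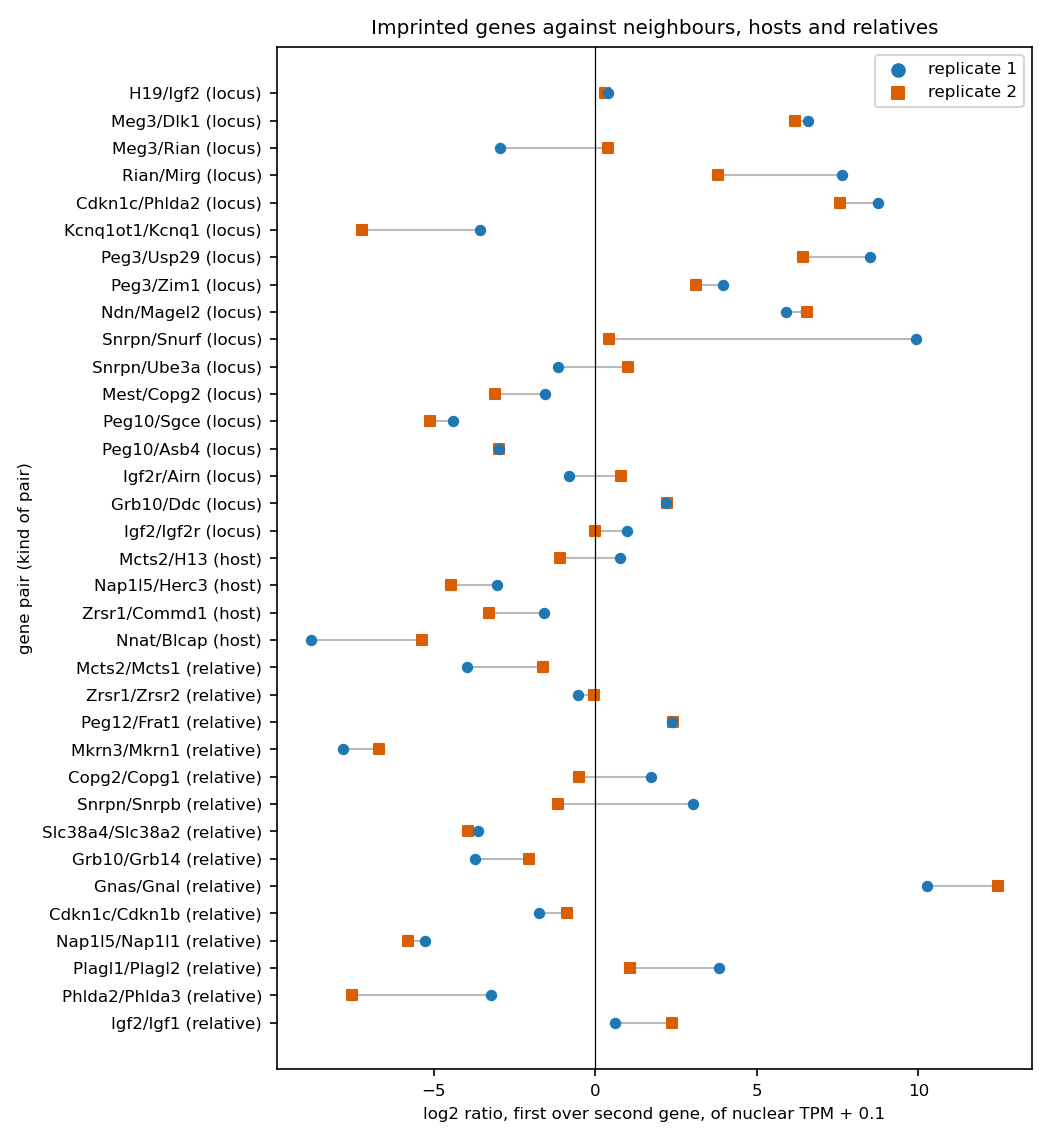
Log2 ratio of nuclear TPM (+ 0.1) of each gene pair in replicate 1 (circles) and replicate 2 (squares), with the kind of pair in brackets. Grb10/Ddc at 2.19 and 2.21 and Peg10/Asb4 at -2.97 and -2.98 nearly coincide. The ratios of 7 pairs lie on both sides of 0, with Igf2/Igf2r near 0 in replicate 2.

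The libraries were then compared gene by gene with edgeR's exact binomial test. A gene was called at an adjusted p under 0.05 (Benjamini-Hochberg over 13182 genes with at least 20 counts over both libraries) and a change of at least 2-fold, on log2 ratios of TMM-scaled counts. Of the 35 members 26 were tested, and the other 9 had fewer counts. In replicate 2, 2 of the 26 were higher, against 38.5% of all tested genes, and 12 were lower, against 27.1%. The median log2 ratio was -0.80 for the members and 0.23 for all tested genes. The tests cover counting error between a pair of libraries from the same heart.

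The higher members were H19, by a log2 ratio of 1.78 (adjusted p = 9.05e-45), and Igf2r, by 1.46 (adjusted p = 4.68e-118), both by edgeR's binomial test. The lower members were Plagl1 (-2.69), Nap1l5 (-2.67), Ube3a (-2.58), Kcnq1ot1 (-1.80), Mest (-1.55), Slc38a4 (-1.53), Rian (-1.46), Asb4 (-1.27), Peg3 (-1.24), Impact (-1.10), Inpp5f (-1.09) and Peg10 (-1.07), the last with an edgeR adjusted p of 0.0149. Gnas, at 0.55, and Cdkn1c, at -0.97, passed the p threshold but changed by less than 2-fold. The scaled counts of Sgce (0.02) and Mcts2 (-0.01) were nearly equal in both libraries. By nuclear TPM, which also depends on effective length, Sgce was at 37.0 and 23.8 and Mcts2 at 19.3 and 16.5.

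GC content moved with these differences. Across all tested genes the log2 ratio had a Spearman rho of 0.90 with the GC content of a gene's transcripts, and across the 26 members 0.63, a description over genes that share both libraries. The members' median GC content was 46.3% against 50.04% for all tested genes. All 12 lower members were among the 20 below that overall median, and both higher members among the 6 above it. Of all tested genes below the median GC content 52.6% were called lower, and of those above it 73.9% were called higher. With the GC trend removed, 1 member was called higher, against 9.69% of all tested genes, and 8 lower, against 11.4%. The median member was then at -0.025, and only Mest (-1.15), Nap1l5 (-1.36) and Plagl1 (-1.99) of the 14 called members kept their call. H19 turned from 1.78 to -1.01, and the newly called genes were Ndn (2.11), Cdkn1c (-5.66), Meg3 (-2.83), Gnas (-2.24) and Igf2 (-1.82). Mest and Plagl1 were called lower in all 7 settings tried.

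**Figure D3:**
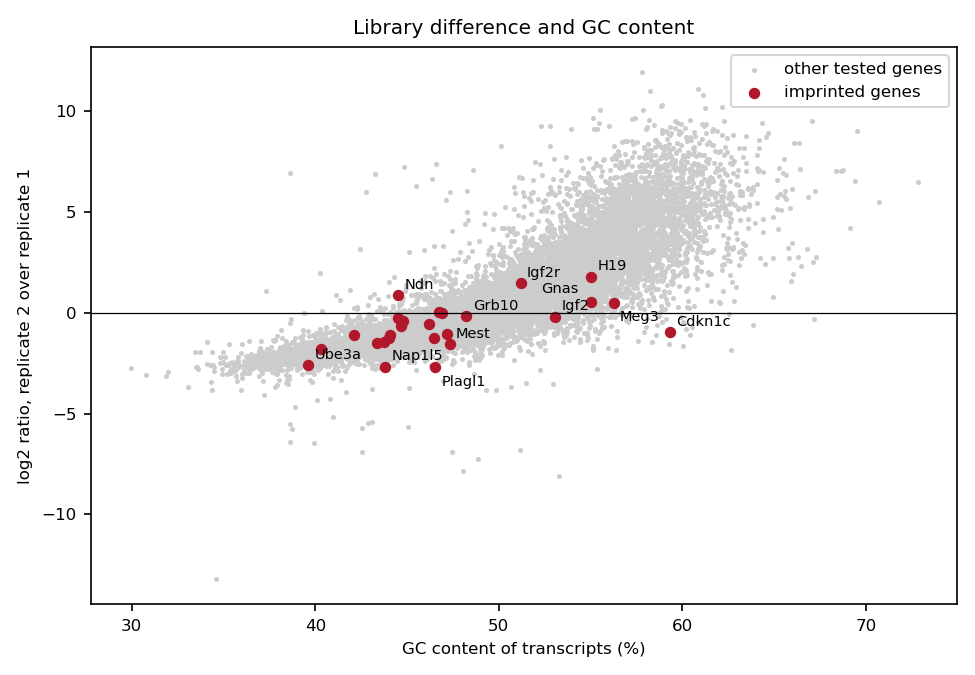
Log2 ratio of replicate 2 over replicate 1 against transcript GC content (%) for the other tested genes with a GC value (grey) and the 26 tested imprinted genes (red). Low-GC members such as Ube3a lie below 0 and H19 and Igf2r above it, while Cdkn1c lies under the trend of the other genes.

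Of 18 members with at least 2 transcripts and at least 20 counts in each library, 13 had the same leading transcript in both and 5 did not: H19, Igf2, Grb10, Peg10 and Sgce. Sgce was led by Sgce-210, a 936-base processed transcript, with 57.8% in replicate 1, and by the coding Sgce-205 with 72.6% in replicate 2, although 11 of the 12 Sgce transcripts start within 500 bases of each other. Igf2r-201 and Slc38a4-201 carried 100% in both libraries. Snrpn-201 carried 100% and 99.5%, Plagl1-202 89.9% and 85.1%, and Peg3-201 80.1% and 84.8%. By the posterior means Plagl1-202 carried 53.1% and 30.8%, Igf2r-201 62.3% and 93.3%, Slc38a4-201 98.7% and 91.9%, and Peg3-201 77.9% and 82.5%. The same start group led in both libraries for Gnas, Peg3, Mest, Plagl1, Snrpn, Slc38a4 and Inpp5f, although the share of the Inpp5f-208 start differed. Different groups led for H19, Grb10 and Igf2.

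**Figure D4:**
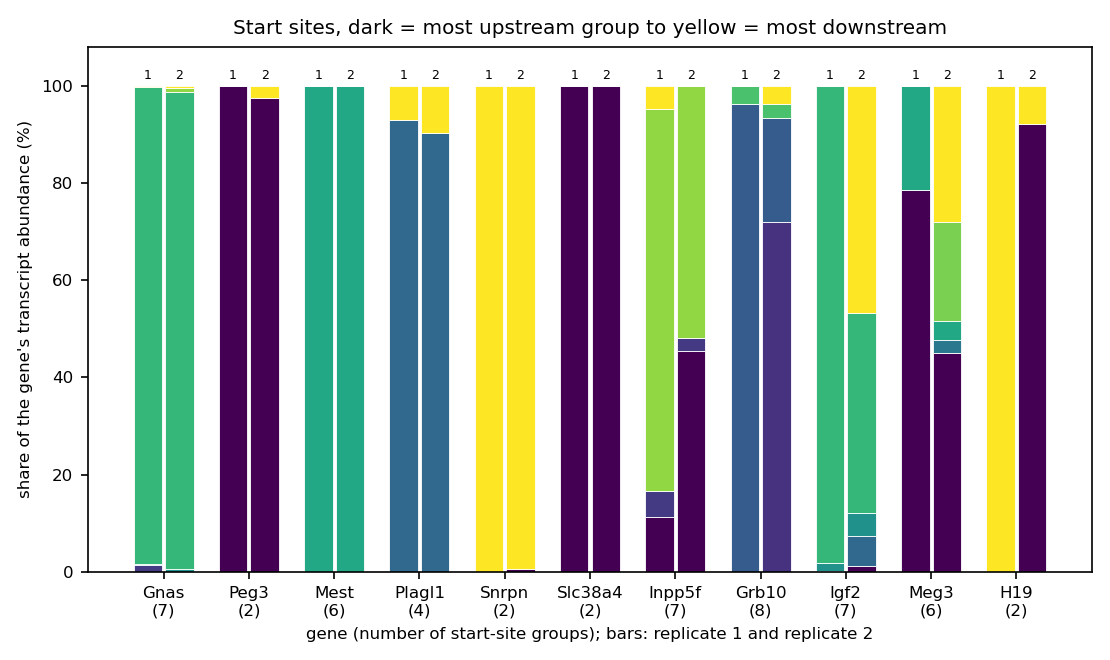
Share (%) of each gene's transcript abundance by group of start sites within 500 bases, in replicate 1 and replicate 2 (left and right bar of each gene), from the most upstream group (dark) to the most downstream (yellow). The bars of Gnas, Mest, Plagl1, Snrpn and Slc38a4 match, and those of H19, Grb10 and Igf2 differ.

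RefSeq promoter windows of 300 bases were found for 30 of the 35 members, 45 windows in all, and credit for the sequences is to RefSeq (GRCm38.p6). A member window held a median of 13 CpG sites, against 7 over 32817 windows of all genes. TGCCGC, on either strand, was in 12 of the 45 (26.7%) and in 11.6% of all windows. The 12 include 2 overlapping windows of Mest, from 30737800 and from 30737803, that hold the same matches. A match holds a CpG, so CpG-rich windows have more of them, and a match is a description, not a binding site. The member windows with 2 matches, the most in any, were those of Mest and Nap1l5, and 1.53% of all windows held 2 or more. A YY1 motif, AANATGGC on either strand, was in 3 (6.67%) against 6.04%, those of Mkrn3, Slc38a4 and Ube3a.

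Genes that set up or keep imprints were measured as a list of 18, of which 13 stood at 1 nuclear TPM or more in both libraries. Of 15 tested, 3 were called higher in replicate 2, against 38.5% of all tested genes, and 5 lower, against 27.1%, with a median log2 ratio of -0.95. The highest by the mean of both libraries were Zfp445, a zinc-finger protein that keeps imprints (120 and 32.8 nuclear TPM), Yy1 (118 and 28.1), Ctcf, the insulator protein of the H19-Igf2 control region (77.2 and 37.8), Smchd1 (82.6 and 22.0) and Eed, a Polycomb subunit (71.6 and 20.4). In replicate 2 the highest was Trim28, at 5.54 and 82.5. Zfp57 was at 6.51 and 3.68. The germ-line genes Ctcfl and Dppa3 had no counts.

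Of a further 43 imprinted or neighbouring genes, 39 were matched by name and 20 stood at 1 nuclear TPM or more in both libraries. Of 22 tested, 6 were called higher, against 38.5% of all tested genes, and 4 lower, against 27.1%, with a median log2 ratio of 0.17. The highest by the mean of both libraries were Cd81, a tetraspanin (203 and 442 nuclear TPM), Commd1 (87.0 and 169), Nap1l4 (87.3 and 148), Casd1 (107 and 24.3) and Herc3 (93.9 and 34.9). In replicate 2 Blcap (55.2), Pon2 (36.3) and H13 (35.3) also stood above Herc3. Dio3, Ascl2, Ins2, Calcr, Dlx5, Slc22a2, Kcnk9 and Nespas had no counts in either library.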

How the data were processed

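Poly(A) RNA of 1 heart was measured in 2 libraries. Expected counts, TPM, FPKM and, for transcripts, the percent of their gene's abundance are the authors' values in the deposited gene and transcript tables of mm10 with annotation M4, per the deposited file list. Posterior means deposited beside them were used in alternatives. The sources used here do not name the aligner or the abundance program, or say whether strand was used. Gene and transcript names and 1-based coordinates came from GENCODE M21 (GRCm38, the same assembly) and matched all 35 members. Nuclear genes matching a mitochondrial gene at 95% identity over 90% of their length (blastn 2.17.0) were set aside with the mitochondrial genes. The deposited TPM are written to 0.01, which is 0.139 nuclear TPM in replicate 1 and 0.0256 in replicate 2. Depth is as reported above, and the limit for a gene without counts is taken as 3 counts.

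Counts were rounded and compared between the libraries with edgeR 4.0.16 in R 4.3.3 (binomial test, TMM), with 0.5 counts added to log2 ratios. Pair ratios are counts per effective length with exact 95% intervals, or log2 of nuclear TPM + 0.1. GC content is the mean over a gene's transcripts, weighted by TPM, and its trend is the median log2 ratio in 50 bins. Start groups join transcripts that start within 500 bases. Python 3.11.15 with pandas 2.3.3 and scipy 1.17.1 served the rest. On simulated counts with counting error only, the test called 41 of 49 genes changed 2.5-fold, 50 of 50 changed 4-fold, and 2 of 12982 unchanged genes. The simulation held no GC difference between the libraries, so it gives no error rate for the calls made here. DESeq2 1.42.0 size factors, other filters, posterior means, GC correction and leaving out each library were alternatives. The members, lists, pairs and tests were chosen with earlier results of these data known. Named are all members, both genes of every pair, leading transcripts and the 5 highest genes of each other list, and other genes of these lists and the markers were named after their values were seen.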

Additional observations from a re-analysis of the deposited data

How the results depend on the processing

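There was 1 animal and 1 group, so no value extends to other mice, and low members rest on few counts in replicate 1. Of 35 recomputed values of the 8 summary results, 26 stayed within the tolerance set, which is 1.5 times for a count, 0.05 for a median log2 ratio and 1 SD for a share. Within it, members at 1 TPM fell from 24 to 18 with TPM as deposited, and lower calls from 12 to 8 with the GC trend removed. Called higher were 4 members with no count filter (Ndn and Snurf added) and 1 with the GC trend removed. With total nuclear counts in place of TMM, 3 were higher and 9 lower. The median log2 ratio of the members was -0.91 with DESeq2 size factors, -0.67 with total nuclear counts, -0.10 with no filter (33 genes, most of the added ones at few counts), -0.53 at 100 or more counts and -0.025 without the GC trend, and that of all genes then moved from 0.23 to 0.12, 0.36, 0.55, 0.15 and 0. Without Snrpn, by mean level the highest gene of the maternal and paternal classes, the maternal share was 49.0%, and without Gnas the highest member held 16.5% of the rest. In replicate 1 alone and in replicate 2 alone, the members at 1 nuclear TPM were 25 and 27, the maternal share 39.4% and 46.3%, the share of Gnas 44.9% and 62.1%, and the pairs led by the gene named before the stroke 17 and 16. Among the 28 pairs with 1 order in both libraries, mean log2 ratios reversed for Peg12/Frat1 by posterior means (-0.24) and for Cdkn1c/Cdkn1b with replicate 1 brought to the GC profile of replicate 2 (1.59). Among the 7 pairs whose order differed, that GC profile changed the sign of 5 means: Meg3/Rian (1.05), Snrpn/Ube3a (0.36), Igf2r/Airn (0.76), Copg2/Copg1 (-0.57) and Snrpn/Snrpb (-1.57). Posterior means changed that of Igf2r/Airn (0.22). The cause was not tested. Calls in a shared leading transcript were 12 by posterior means and 9 of 12 at 100 or more counts. The posterior shares of starts were added after seeing the data, as was leaving out Snurf, which gave a maternal share of 45.1%. No paired analysis was possible because all samples belong to 1 group.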
